A study of Flaveria robusta and Flaveria sonorensis and Flaveria ramosissima with 24 samples.

Results

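The genes described here are those whose leaf transcripts were more abundant under low CO2 in both Flaveria robusta and Flaveria sonorensis. Of the 29562 genes in the table, 54 were members. A member had to have its lowest low CO2 library above its highest control library in each of these species, a mean difference of at least 0.8 in log2(TPM + 1) in each, and a low CO2 mean of at least 5 TPM in each. TPM is a transcript abundance scaled for transcript length and for the library total. The members were thus selected on the robusta and sonorensis values, which are given below as a description without any test, whereas the F. ramosissima and F. trinervia libraries were not used for the choice and were tested.

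RNA was measured in newly expanded mature leaves of 4 Flaveria species, with 3 control and 3 low CO2 libraries per species and 24 in all. The low CO2 plants were kept for 2 weeks at a CO2 setting of 100 and the controls at 380. The labels give both settings in the flux unit used for the light, so the gas concentration is as labelled and not otherwise known. All groups had the same growth chamber settings of 22 °C and 70% humidity, with light at 200 µmol m-2 s-1 in days of 16 h and nights of 8 h. No genotype other than the species, and no plant age, was given, and nothing states that the 3 libraries of a group came from separate plants, so the p-values measure only the spread between these samples, which may be technical. The files carry gene identifiers without names, so that no function, pathway or sequence is given for any member, and the leaf label could not be checked against marker genes. Members other than 4 named by a rule are called by their rank, with rank 1 for the member whose smaller change of the 2 choosing species was largest.

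Flaveria is a genus in which closely related species use different types of photosynthesis. Rubisco, the enzyme that fixes CO2, also reacts with oxygen, and the product is recycled through photorespiration at a cost of released CO2, which weighs more as CO2 becomes scarce. F. robusta is a C3 species, in which Rubisco meets CO2 that has simply diffused into the leaf. The C3-C4 intermediates, here F. sonorensis together with F. ramosissima, refix part of the photorespired CO2 in bundle sheath cells. F. trinervia is a C4 species, in which a biochemical pump raises CO2 around Rubisco. A whole leaf holds several cell types, and in these bulk samples a change in the share of a cell type cannot be told apart from a change in RNA per cell.

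In the choosing species the members covered a wide range of changes. In robusta the change (low CO2 minus control, log2(TPM + 1)) ran from 0.80 to 4.80 with a median of 1.60, and in sonorensis from 0.80 to 6.82 with a median of 1.30. The change was larger in robusta for 35 members and in sonorensis for 19. Only 5 members had a change of 2 or more in both species, against 14 with such a change in robusta and 9 in sonorensis. The median TPM of the members was 7.88 in the robusta controls and 22.0 under low CO2, and 14.8 and 33.9 in sonorensis.

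Most genes that met the rule in 1 species did not meet it in the other. In robusta 545 genes met it and in sonorensis 357, of all 29562 genes. The 54 members made up 9.91% of the robusta list, beside 1.21% of all genes that met the rule in sonorensis. They made up 15.1% of the sonorensis list, beside 1.84% of all genes that met it in robusta. All genes here include those too low to reach the limit of 5 TPM. The low CO2 libraries lay wholly above the controls for 11.1% of the genes with a mean of 1 TPM or more in robusta and for 10.8% in sonorensis, and wholly below them for 49.3% and 31%. The median change over all such genes was -0.36 in robusta and -0.17 in sonorensis, which the members' changes are not corrected for. After median-of-ratios scaling, which moves these medians, 148 genes met the rule in both species, all 54 members among them, and after quantile scaling 157 did, with 52 of the members. The 3 members just inside the limit had a smaller change of 0.809, 0.804 and 0.801, and the 3 genes just outside it had 0.770, 0.769 and 0.766.

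**Figure D1:**
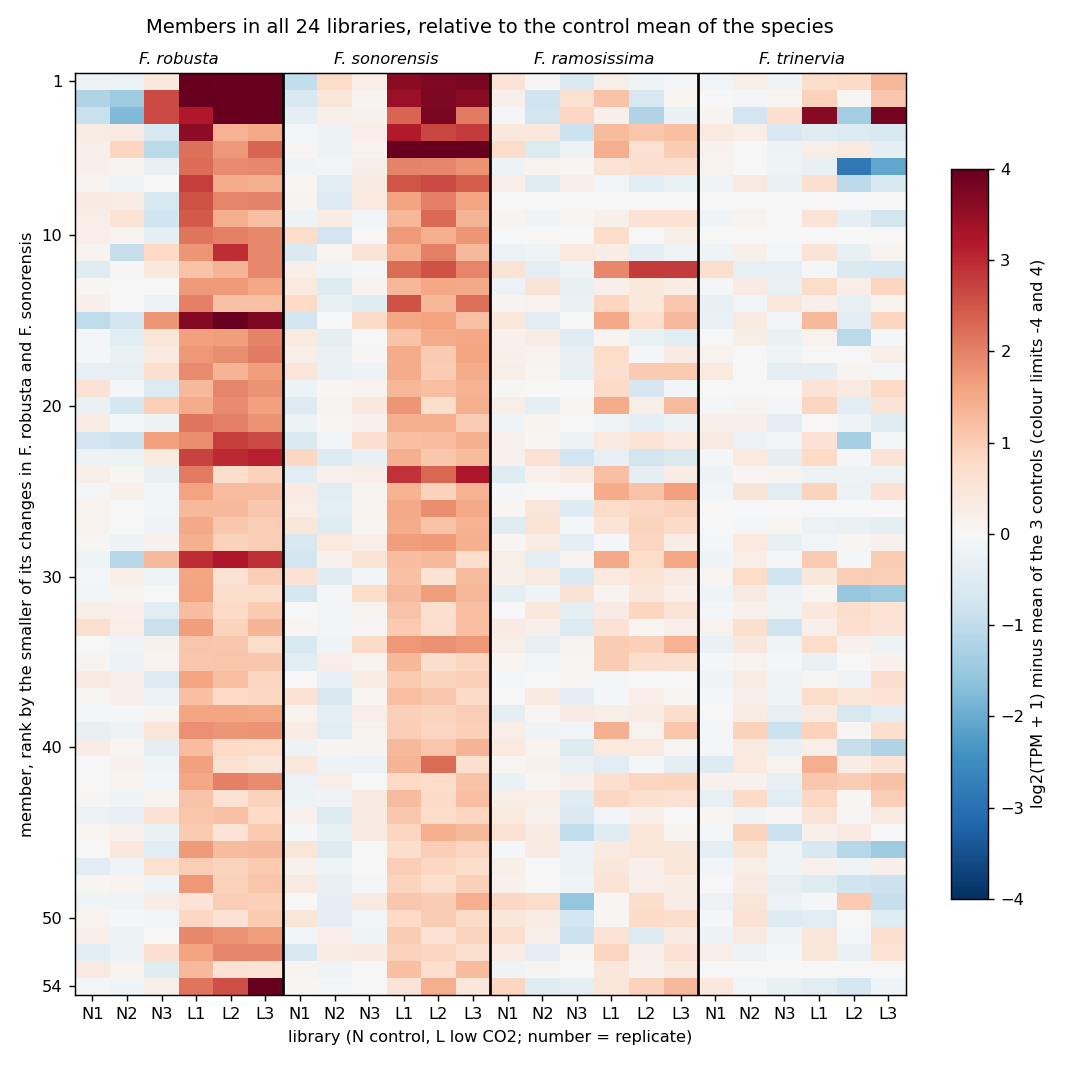
Level of the 54 members (lines, by rank) in the 24 libraries (columns, N control and L low CO2), as log2(TPM + 1) minus the mean of the 3 controls of the species, with colours limited at -4 and 4. The red low CO2 columns of F. robusta and F. sonorensis reflect the choice of members, and the columns of F. ramosissima and F. trinervia are paler and mixed in sign.

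In F. ramosissima most members had a higher mean under low CO2, at a smaller size than in the choosing species. The change ran from -0.55 to 2.50 with a median of 0.37, and it was positive for 44 members, negative for 9 and zero for 1. Over all 15899 genes with a mean of 1 TPM or more in this species the median change was 0.00 and 50.0% of the genes were positive. All 3 low CO2 libraries lay above all 3 controls for 20 members, which is 37% of the members beside 6.77% of those genes, and below them for 1 member, beside 7.36%. Here and below, such member shares also count members with a mean below 1 TPM, whereas the gene shares leave out genes below it. The 20 members had changes of 0.34 to 2.50, with a median of 0.79. A change of 0.8 or more was measured for 13 members (24.1%, beside 2.06% of all genes tested) and a change of -0.8 or less for none. The number with separated libraries was 20 to 27 when each library was left out in turn, beside 7.48% to 19.7% of the genes.

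Few of these changes passed the test of the species. With limma on log2(TPM + 1) and Benjamini-Hochberg adjustment over the 15899 genes, 2 of the 49 members that could be tested were higher at an adjusted p below 0.05, beside 0.101% of all genes, and 0 were lower, beside 0.189%. At an unadjusted p below 0.05, 21 of the 49 were higher, beside 4.26% of all genes, and 0 were lower, beside 5.42%. The remaining 5 members had a mean below 1 TPM in this species, and 1 of them was listed at 0 in all 6 libraries. Both calls depended on single libraries, since 0 members passed without control 2, control 3, low CO2 2 or low CO2 3, and 1 passed without control 1 or low CO2 1. They also depended on the processing, since 0 passed when low genes were kept or after quantile scaling and 1 after median-of-ratios scaling. With a block for the replicate number 6 passed as higher, beside 0.484% of all genes. The labels do not say whether these numbers pair the libraries.

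The called member with the larger change was that of rank 12, which was abundant in all 4 species. Its ramosissima level was 371, 192 and 232 TPM in the controls and 966, 1765 and 1762 TPM under low CO2. The groups were well apart, with the lowest low CO2 library above the highest control. The change was 2.50 (SE 0.31, limma adjusted p = 0.0218). Without control 2 it was 2.29 with an adjusted p of 0.0737, and the call was likewise lost without control 3, low CO2 2 or low CO2 3. The same member measured 708, 1036 and 1345 TPM in the robusta controls and 2183, 2554 and 3761 TPM under low CO2. In sonorensis it measured 284, 227 and 236 TPM and then 1178, 1464 and 972 TPM. In trinervia it went the other way in the means, from 1163, 588 and 581 TPM in the controls to 706, 490 and 484 TPM, and there the groups overlapped (change -0.42, SE 0.31, limma adjusted p = 0.556).

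The second called member, of rank 25, was present at a low level. It had 5.86, 6.19 and 6.19 TPM in the ramosissima controls and 18.8, 14.5 and 21.2 TPM under low CO2. The controls were nearly equal and all low CO2 libraries were higher, with a change of 1.42 (SE 0.21, limma adjusted p = 0.0414). Leaving out any one of the 6 libraries took it past the threshold, to adjusted p-values between 0.0622 and 0.324. In trinervia its control libraries had 18.4, 28.8 and 14.3 TPM and its low CO2 libraries 37.1, 16.7 and 29.9 TPM, which overlapped.

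**Figure D2:**
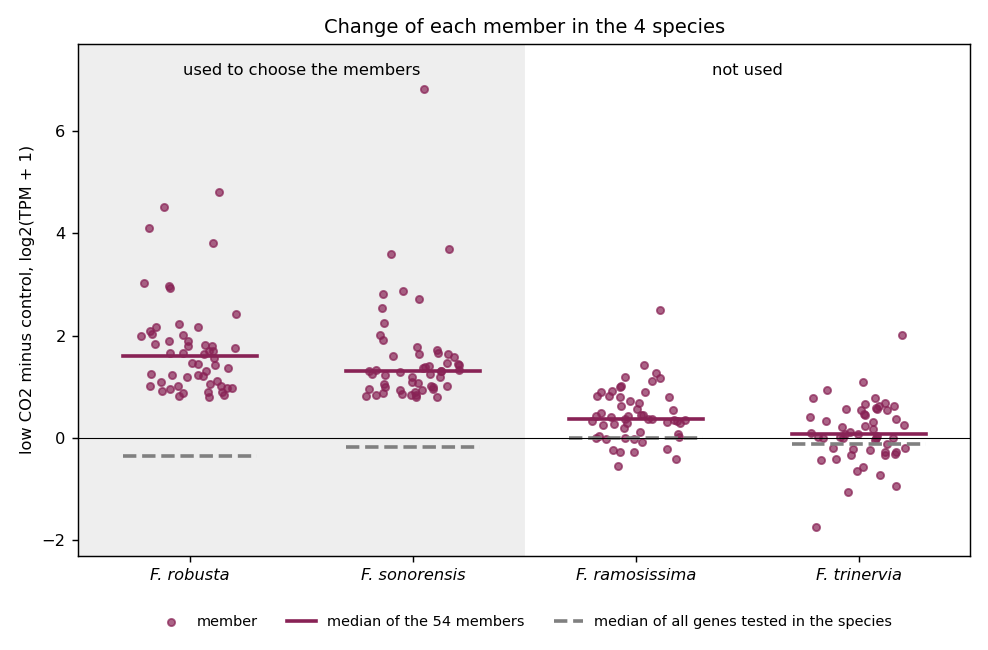
Change of each of the 54 members (points) in each species, as the mean log2(TPM + 1) of 3 low CO2 libraries minus that of 3 controls, with the median of the members (solid line) and of all genes tested in the species (dashed line). The medians of the members were 1.60 and 1.30 in the species that chose them, 0.37 in F. ramosissima and 0.08 in F. trinervia.

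In F. trinervia the members were spread on both sides of zero. The change ran from -1.75 to 2.02 with a median of 0.08, and it was positive for 31 members, negative for 19 and zero for 4. The median over the 13873 genes with a mean of 1 TPM or more was -0.12, and 36.8% of them were positive. All low CO2 libraries lay above all controls for 5 members (9.26%, beside 6.7% of those genes) and below them for 4 (7.41%, beside 14.6%). Of the 5, that of rank 19 had 0 TPM in the controls and 0.46, 0.27 and 0.71 TPM under low CO2. With limma, 0 of 44 members tested were higher at an adjusted p below 0.05, beside 0.18% of all genes, and 0 were lower, beside 1.41%. At an unadjusted p below 0.05, 6 were higher, beside 4.38% of all genes, and 3 were lower, beside 12.8%. Of the 10 members that were not tested, 4 were listed at 0 in all 6 libraries.

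These counts in trinervia rested on single libraries. Without low CO2 2, 7 of the 44 members tested passed as higher (ranks 1, 2, 3, 15, 20, 29 and 42), while the share of all genes passing as higher also went up, to 2.81%. In the same setting 18 members had separated libraries in that direction, which is 33.3% beside 12.7% of the genes. Without control 2, 15 members had separated libraries, 27.8% beside 13.6%, and 0 passed the test. Without low CO2 1, 1 member passed as lower, that of rank 6, beside 0.618% of all genes. The median change moved between 0.00 and 0.19, and the number of positive members between 26 and 32, over the 6 libraries left out in turn.

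The responses of trinervia and ramosissima were compared in a joint limma model of their 12 libraries over 11059 genes. Of the 43 members tested, 1 differed at an adjusted p below 0.05, that of rank 12, with a response in trinervia lower by 2.91 on the log2 scale (value -2.91, SE 0.48, adjusted p = 0.0378). A lower response was called for 0.127% of all genes and a higher response for 0.0543%, with 0 members. At an unadjusted p below 0.05 the trinervia response was lower for 13 members, beside 7.77% of all genes, and higher for 2, beside 3.72%. The call of rank 12 was lost without ramosissima control 1, 2 or 3, ramosissima low CO2 2 or 3, trinervia control 1 or 3, or trinervia low CO2 3, with adjusted p-values from 0.0533 to 0.146. By separation of the libraries alone, 1 member had its low CO2 values on top in both species. Another 4 had them on top in ramosissima but at the bottom in trinervia. Of all genes, 6.77% were on top in ramosissima, and in trinervia 6.7% were on top and 14.6% at the bottom. The share of all genes with either joint pattern was not computed, so these counts are not read as a result about the members.

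The member of rank 1, Gene00137, was the most abundant member in trinervia. In robusta it had 34.0, 33.0 and 52.4 TPM in the controls and 717, 622 and 736 TPM under low CO2, a change of 4.11. In sonorensis it had 60.7, 202 and 148 TPM and then 1500.3, 1592 and 1669 TPM, a change of 3.69. In both choosing species every low CO2 library was several times above the highest control. In ramosissima its controls were already at 3122, 2185 and 1427 TPM and its low CO2 libraries at 2529.5, 1882 and 2068 TPM, which overlapped (change 0.01, SE 0.27, limma adjusted p = 0.999). In trinervia it had 17175, 21858 and 16818 TPM in the controls and 30396, 31321 and 46288 TPM under low CO2, without overlap and with a change of 0.93 (SE 0.21, limma adjusted p = 0.0783). From the lowest control level to the highest, the order was thus robusta, sonorensis, ramosissima and trinervia, with no overlap between neighbours. Without trinervia low CO2 2 the change was 1.02 and passed the test at an adjusted p of 0.0239. The difference between the responses of trinervia and ramosissima was 0.93 (SE 0.36, limma adjusted p = 0.348).

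Gene18028, of rank 42, had higher low CO2 libraries than controls in each of the 4 species, and no other member did. In robusta it had 4.64, 5.27 and 4.24 TPM in the controls and 15.6, 22.3 and 20.3 TPM under low CO2, and in sonorensis 13.6, 19.3 and 16.4 TPM and then 29.3, 27.5 and 37.4 TPM. In ramosissima it had 5.69, 7.33 and 8.30 TPM and then 11.9, 13.7 and 13.8 TPM, a change of 0.81 (SE 0.21, limma adjusted p = 0.212). In trinervia it had 22.2, 21.9 and 15.3 TPM and then 42.3, 40.6 and 45.1 TPM, a change of 1.09 (SE 0.21, limma adjusted p = 0.0521). Neither change passed the test, although the libraries were separated in both species. The trinervia change passed without low CO2 2 (1.12, adjusted p = 0.0157), after median-of-ratios scaling (1.20, adjusted p = 0.0412) and after quantile scaling (1.30, adjusted p = 0.0389).

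Gene21982, of rank 41, had the lowest test statistic of the members in ramosissima. Its ramosissima controls had 9.50, 10.2 and 7.25 TPM and its low CO2 libraries 6.46, 8.61 and 6.51 TPM, which overlapped (change -0.28, SE 0.22, limma adjusted p = 0.782). In robusta it had 7.0, 8.08 and 6.07 TPM and then 23.8, 11.2 and 10.3 TPM, and in sonorensis 12.8, 8.08 and 7.85 TPM and then 25.3, 47.4 and 15.2 TPM. In each of these species 1 low CO2 library was well above the other low CO2 libraries. In trinervia it had 16.0, 30.8 and 25.7 TPM and then 66.0, 28.6 and 35.4 TPM, again with 1 high library and with overlapping groups (change 0.78, SE 0.36, limma adjusted p = 0.330).

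Gene29840, of rank 46, had the lowest test statistic of the members in trinervia. There it had 85.2, 164 and 102 TPM in the controls and 73.8, 50.9 and 41.8 TPM under low CO2, with all low CO2 libraries below all controls (change -1.05, SE 0.31, limma adjusted p = 0.144). In robusta it had 8.94, 12.5 and 6.47 TPM and then 31.6, 23.2 and 23.8 TPM, and in sonorensis 68.0, 33.5 and 47.9 TPM and then 79.0, 95.1 and 87.0 TPM. In ramosissima it was at its lowest, with 2.70, 3.90 and 2.30 TPM and then 4.01, 4.48 and 4.32 TPM (change 0.43, SE 0.21, limma adjusted p = 0.586). Hence the ramosissima libraries were also separated, in the direction opposite to trinervia, and the difference between the 2 responses was -1.48 (SE 0.38, limma adjusted p = 0.128).

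**Figure D3:**
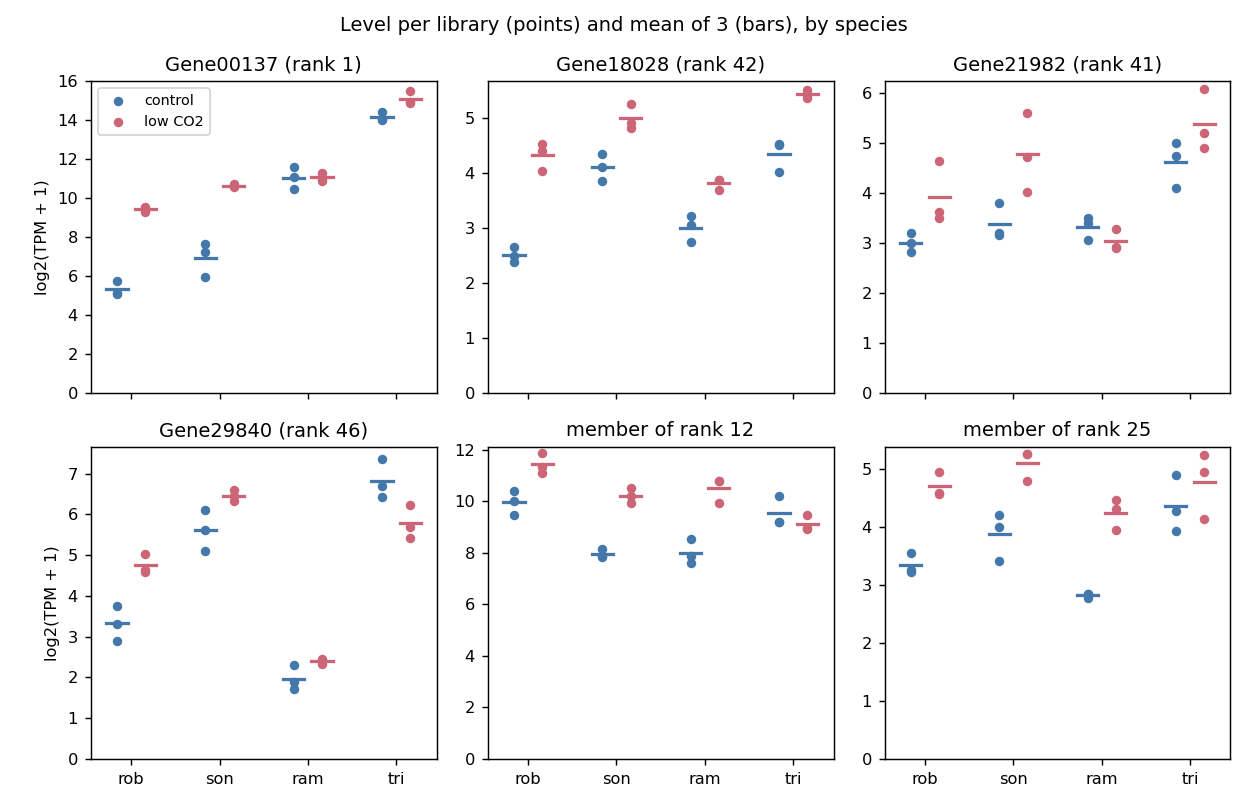
Level of 6 members as log2(TPM + 1) in control (blue) and low CO2 (red) libraries of F. robusta (rob), F. sonorensis (son), F. ramosissima (ram) and F. trinervia (tri), with points for libraries and bars for the mean of 3. The low CO2 points of rank 12 lie above the controls in every species but F. trinervia, and those of Gene18028 in all 4.

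Other members show how far the species differed. The member of rank 5 had the largest change in sonorensis, from 18.4, 15.0 and 19.4 TPM to 2045, 1614 and 2750.1 TPM. In ramosissima it was abundant in both conditions, at 1489.9, 609 and 765 TPM in the controls and 2411, 1341 and 1804 TPM under low CO2, with overlapping groups. In trinervia it stayed between 0.26 and 1.14 TPM in all libraries, and its low CO2 and control values overlapped. The largest change in robusta was that of rank 3, with 2.51, 0.95 and 40.2 TPM in the controls and 58.8, 467 and 217 TPM under low CO2. In trinervia it had 8.09, 3.98 and 12.4 TPM and then 104, 2.21 and 120 TPM. In that species 2 low CO2 libraries were far above the controls and 1 was below them (change 2.02, SE 1.29, limma adjusted p = 0.480). The most negative change in trinervia was that of rank 6, from 22.0, 20.0 and 17.3 TPM to 15.8, 1.86 and 3.87 TPM. Its low CO2 libraries were all below the controls but differed widely among themselves (change -1.75, limma adjusted p = 0.181), and without low CO2 1 the change was -2.47 and passed at an adjusted p of 0.0295.

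The control level of the members was compared across the species next. These levels are descriptions, since the robusta and sonorensis controls had to be low enough for the members to be chosen. Levels of different species may also carry differences in how each species was matched to a reference. The reference was not given, and such differences cannot be told apart from abundance. All 3 trinervia controls lay above all 3 robusta controls for 28 members (51.9%, beside 32.9% of the genes with a mean of 1 TPM or more in both species) and below them for 12 (22.2%, beside 34.2%). For ramosissima against robusta the members were 24 above (44.4%, beside 18.8%) and 13 below (24.1%, beside 55.5%). For sonorensis against robusta, both used by the choice, they were 27 above (50%, beside 52.7%) and 3 below (5.56%, beside 16.8%). Relative to sonorensis, trinervia was above for 20 members (37%, beside 15.8%) and below for 17 (31.5%, beside 51.8%), and ramosissima was above for 13 (24.1%, beside 10.6%) and below for 24 (44.4%, beside 68.9%). Between the 2 species that the choice did not use, trinervia lay above ramosissima for 25 members (46.3%, beside 56%) and below it for 11 (20.4%, beside 17.2%).

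The size of these control differences varied widely among the members. The trinervia minus robusta difference in mean log2(TPM + 1) ran from -5.33 to 8.86 with a median of 0.79, beside -0.01 over all genes compared. The median of ramosissima minus robusta was 0.42, beside -0.64, and that of trinervia minus ramosissima was 0.44, beside 0.65. The median TPM of the members was 10.6 in the ramosissima controls and 18.3 under low CO2, and 19.8 and 22.8 in trinervia.

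By their trinervia control level the members fell into 4 classes. The 10 members with a trinervia control mean below 1 TPM were taken out first, and the other classes hold none of them. The trinervia controls both set the class and enter the trinervia response. A class with high controls is thus drawn towards a lower response, and the trinervia responses of the classes are not compared. In 24 members (44.4%) the trinervia control mean was 1 or more above that of robusta on the log2 scale, by 1.03 to 8.86 with a median of 2.23. The median control TPM of these 24 was 8.04 in robusta, 17.6 in sonorensis, 25.2 in ramosissima and 36.5 in trinervia. Their median response was 0.44 in ramosissima, with 21 positive and 10 with libraries separated upwards, beside 6.77% of all genes, and -0.08 in trinervia, with 12 positive. In trinervia 3 of the 24 were separated upwards, beside 6.7% of all genes, and 4 downwards, beside 14.6%, and these few members are not read as a difference from that background. In 18 members the difference was smaller than 1, and their median response was 0.40 in ramosissima, with 15 positive, and 0.22 in trinervia, with 12 positive. In 2 of the members left after that first step trinervia was lower by 1 or more. For the 10 taken out the difference ran from -5.33 to -0.48. All of these but the member of rank 17 were also lower by 1 or more.

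The 10 members taken out first had a trinervia control mean below 1 TPM. Under low CO2 they stayed low in trinervia, with a highest mean of 0.78 TPM, whereas their low CO2 means ran from 6.12 to 283 TPM in robusta and from 8.07 to 2136 TPM in sonorensis. In ramosissima 3 of the 10 were below 1 TPM in the controls, and the others reached a control mean of up to 955 TPM. The member of rank 8 was listed at 0 in all 12 ramosissima and trinervia libraries, and it had 3.19, 3.05 and 1.15 TPM in the robusta controls and 18.5, 11.8 and 12.1 TPM under low CO2. An absent match to the reference, which was not given, and an absent transcript cannot be told apart for these members.

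**Figure D4:**
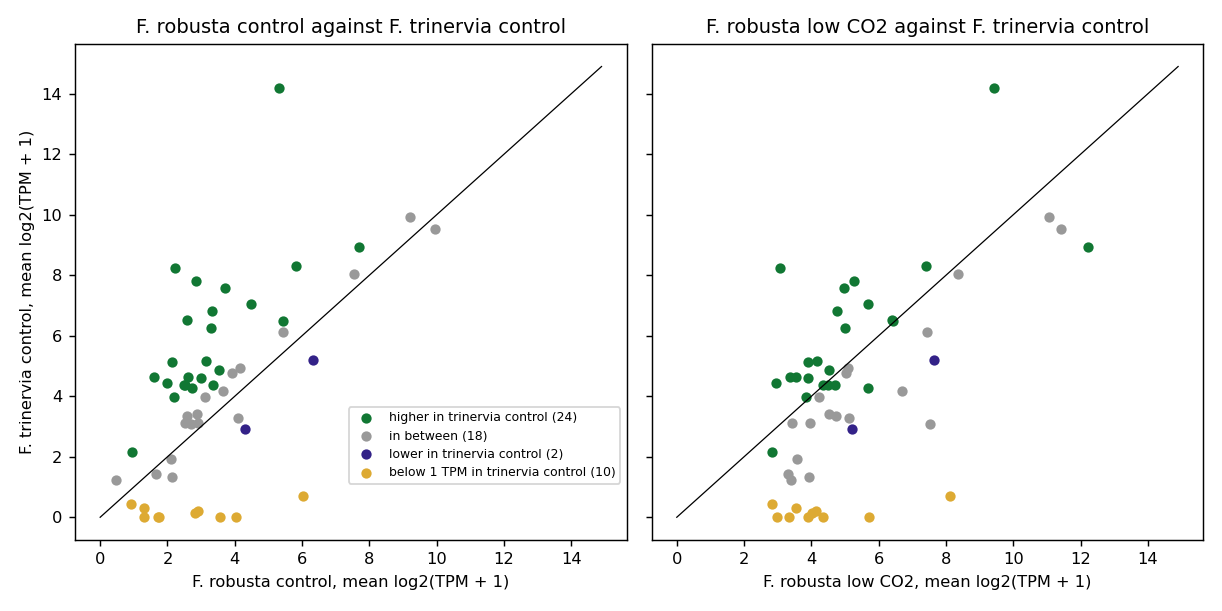
Mean log2(TPM + 1) of the 54 members in the F. trinervia controls (vertical axis) against the F. robusta controls (left) and the F. robusta low CO2 libraries (right), coloured by class, with a line of equal level. In the left panel 24 members lie 1 or more above the line, and in the right panel the points have shifted right, as the choice of members requires.

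The level reached under low CO2 was also set beside the trinervia control range. The robusta control mean lay below the range of the 3 trinervia controls for 32 members, within it for 7 and above it for 15, and the robusta low CO2 mean for 16, 9 and 29. The sonorensis control mean lay below the range for 26 members, within it for 9 and above it for 19, and the sonorensis low CO2 mean for 8, 8 and 38. Among the 24 members of the class that was higher in trinervia, 16 were still below the trinervia control range in robusta under low CO2 and 7 in sonorensis. The rule chose an upward move in both species but did not use the trinervia range, so part of this shift follows from the choice.

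The share of the deposited TPM held by the members depended on Gene00137. In robusta the 54 members held 0.232%, 0.271% and 0.482% of the library total in the controls and 1.32%, 1.34% and 1.57% under low CO2, and in sonorensis 0.349%, 0.359% and 0.425% and then 1.36%, 1.39% and 1.43%. In trinervia they held 2.40%, 2.90% and 2.26% and then 3.92%, 3.92% and 5.51%, with no overlap. Without Gene00137 the trinervia shares were 0.546%, 0.524% and 0.434% and then 0.627%, 0.441% and 0.534%, which overlapped. In ramosissima they held 1.04%, 0.695% and 0.724% and then 1.35%, 1.02% and 1.19%, and without Gene00137 0.699%, 0.455% and 0.568% and then 1.08%, 0.817% and 0.969%, which did not overlap. Abundant members weigh most in such sums. There the member of rank 12 alone went from 371, 192 and 232 TPM to 966, 1765 and 1762 TPM. Shares without it were not computed, so the separation is not read as a rise of the other members.

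Some libraries stood apart from the others of their group in these members. Robusta control 3 was higher than the mean of the other controls by 1 or more in log2(TPM + 1) for 8 members (14.8%, beside 3.49% of the genes). Trinervia low CO2 2 was lower than the other low CO2 libraries by as much for 8 members (14.8%, beside 3.55%). That library also stood apart over all genes, mostly in the opposite direction. It was higher by 1 or more for 1391 of the 13873 genes and for 1 member. Its median deviation was 0.30 over those genes and -0.29 over the members. Trinervia low CO2 1 was higher for 9 members (16.7%, beside 1.96%) and ramosissima low CO2 2 was lower for 6 (11.1%, beside 0.711%). The member of rank 15 shows the pattern, with 1.97, 2.61 and 19.5 TPM in the robusta controls and 225, 65.8 and 165 TPM under low CO2 in trinervia. In both species 1 library of the group was far from the others. The same 5 members, of ranks 3, 15, 20, 22 and 29, were high in robusta control 3 and low in trinervia low CO2 2, and 4 of them were among the 7 that passed in trinervia without that library. Across the 54 members the deviations of the 2 libraries had a Pearson r of -0.633 and a Spearman rho of -0.503, and without the member of rank 3, the lowest in trinervia, r was -0.491 and rho -0.475, whereas across all 8863 genes compared r was -0.337 and rho -0.227. The members share these libraries and are not independent replicates. Robusta control 3 was also used to choose the members, so its deviations in them depend on the rule. Both libraries were taken from those that stood apart in the members, and no other pair from different species was correlated. The robusta control 3 share and the correlations of the members are thus not read as a difference from all genes. The reason for these deviations was not tested.

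**Figure D5:**
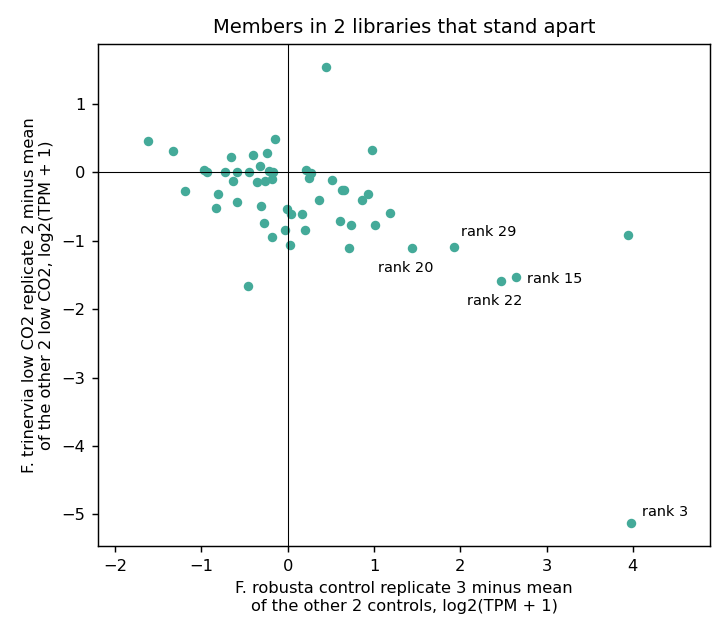
Deviation of F. robusta control 3 from the mean of the other 2 controls (horizontal axis) and of F. trinervia low CO2 2 from the mean of the other 2 low CO2 libraries (vertical axis), in log2(TPM + 1), for each of the 54 members. The 5 labelled members were 1 or more above the other controls in the former and 1 or more below the other libraries in the latter.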

How the data were processed

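RNA from leaves was sequenced as paired reads of 150 bp, and the authors deposited 1 table of TPM for 29562 genes in 24 libraries, of which 807 genes were at 0 throughout. The submitters' processing notes name RSEM and edgeR. Versions, aligner and reference were not given in the sources used here. The TPM columns sum to 857693 to 930239 and keep no read depth, so that the depth is unknown and no counting interval is given.

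Groups were taken from the sample labels. Values were tested as log2(TPM + 1) with limma 3.58.1 in R 4.3.3 (trended variance, genes with a mean of at least 1 TPM in the species, Benjamini-Hochberg adjustment, threshold 0.05), on the 6 libraries of F. ramosissima or F. trinervia, or on all 12 for the difference between their responses. A fold change on this scale understates that of low genes. The fits were tested on simulated data with known changes. Figures and descriptions used Python 3.11.15 and matplotlib 3.10.9.

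The members and the rules were chosen with earlier results of these data known. The identifiers printed are those of the member with the largest smaller change in the choosing species, the highest test statistic in trinervia, and the lowest in ramosissima and in trinervia. Members of other ranks were described after their values were seen. Each result was recomputed with a pseudocount of 0.1, without the filter or with one of 5 TPM, median-of-ratios or quantile scaling, no trend, robust fitting or a block for the replicate number, and with each library left out in turn. Added after seeing the data were the calls and responses of members chosen after median-of-ratios scaling.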

Additional observations from a re-analysis of the deposited data

Results flagged for a closer look

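The member of rank 12 was picked out because its response to low CO2 differed between F. trinervia and F. ramosissima in a test of the difference itself. The trinervia response minus the ramosissima response was -2.91 on the log2(TPM + 1) scale (SE 0.48, limma adjusted p = 0.0378 over 11059 genes). In ramosissima all 3 low CO2 libraries, at 966, 1765 and 1762 TPM, were above all 3 controls, at 371, 192 and 232 TPM. In trinervia the low CO2 libraries, at 706, 490 and 484 TPM, overlapped the controls, at 1163, 588 and 581 TPM, although their mean was lower. The trinervia controls were all above the ramosissima controls. The call was lost in 8 of the 12 fits that left out 1 library, with adjusted p-values from 0.0533 to 0.146, and it was kept under the other scalings, filters and fits that were run.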

How the results depend on the processing

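The rule gave 148 members after median-of-ratios scaling, which held all 54, and 157 after quantile scaling, which held 52, against 54 on the deposited scale. With 1 library left out it gave 47 to 64, the lowest without sonorensis control 2 and the highest without sonorensis low CO2 2. In ramosissima the number of members called was 2, and it was 0 without a filter, 1 after median-of-ratios scaling, 0 after quantile scaling, 6 with a replicate block, 3 among members chosen after median-of-ratios scaling, and 0 to 1 with 1 library left out. In trinervia it was 0, and it was 1 after median-of-ratios scaling, 1 after quantile scaling and 0 to 7 with 1 library left out. The number called for the difference between the responses was 1, and 0 to 2 with 1 library left out. No called result reversed its direction. The ramosissima change of Gene00137, near 0 and never called, took the opposite sign after quantile scaling (-0.02), without control 3 (-0.29) and without low CO2 1 (-0.11). The labels do not say whether the replicate numbers pair the libraries, and these values cannot settle it. The deviations of same-numbered libraries correlated at 0.342, 0.470 and 0.0958 in ramosissima and at -0.108, 0.0821 and 0.135 in trinervia. In ramosissima every library correlated best with its own number, although number 3 reached only 0.0958. The same-numbered values were 0.250, -0.321 and 0.290 in robusta and 0.0016, -0.215 and -0.0747 in sonorensis. Robusta control 2 correlated best with low CO2 1, at 0.382. The block count of 6 in ramosissima is thus not read as a paired result. The replicate block changed neither the 0 of trinervia nor the 1 of the difference. The cause of these shifts was not tested, and the unknown depth limits what can be said of members at a few TPM.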

Other observations

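The choice of scale set how many genes were members. Median-of-ratios scaling gave 148 members, of which 94 were additional. Their responses were described only after seeing the data. Of the 148, 60 had all low CO2 libraries above all controls in ramosissima (40.5%) and 21 in trinervia (14.2%), beside 6.77% and 6.7% of the genes with a mean of 1 TPM or more on the same deposited values, and of the 94 additional ones 40 did in ramosissima (42.6%) and 16 in trinervia (17.0%). The median response of the 148 was 0.38 in ramosissima, with 126 positive, and 0.12 in trinervia, with 94 positive.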
